A study of Mus musculus with 11 samples.

Results

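The net change in germ cell RNA between embryonic stages E11.5 and E15.5, named by days of gestation, was measured in mouse fetal gonads on 6 of the study's 11 Illumina bead arrays, 3 for each stage. Of the 45281 probes on an array, 19232 entered the comparison, each with 2 or more of the 6 arrays giving it a detection p-value under 0.01. Of these probes 4717 were called higher at E15.5 (24.5%) and 5431 lower (28.2%) by the test described below. They gave 10426 named genes. The cells were sorted by fluorescence for green fluorescent protein (GFP) expressed under Pou5f1 control, so that every sample, the controls included, carries this transgene, and a sorted cell is defined by Pou5f1 activity. Embryos from a stock of CBA/CaJ and C57BL/6J origin (F16+), crossed with Hsd:ICR(CD-1), were used at both stages. The E11.5 cells are labelled male/female and the E15.5 cells male, so for any gene that differs between the sexes stage and sex cannot be told apart. The labels call the replicates biological and do not state how many embryos each one held. The other arrays held male germ cells at E13.5 (3 arrays) and GFP-negative, non-germ cells of male gonads at E13.5 (2 arrays), and are given here as levels for reference.

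At E11.5 germ cells have newly settled in the genital ridge, divide, and express much of the pluripotency network. In the male they then stop dividing, lose that network, and enter the prospermatogonial state, in which the RNA-binding protein NANOS2 holds male fate. New DNA methylation is laid down in that state with the help of DNMT3L and of PIWI-interacting RNAs (piRNAs), which silence transposons. All values below are normalized log2 intensities of a gene's brightest probe, and a difference is always E15.5 minus E11.5. Levels of different genes cannot be ranked on this scale, since probes differ in brightness.

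The germ cell label was borne out by the germ cell genes Ddx4 and Dazl. The Pou5f1 level cannot bear on it, since the cells were sorted by Pou5f1 activity. Pou5f1, the gene whose control region drives the sorting marker, stood at 11.10, 11.12 and 10.93 in the E11.5 replicates and at 10.50, 10.10 and 10.66 in the E15.5 replicates, whereas the non-germ cells read 5.07 and 4.70. The germ cell helicase gene Ddx4 gave 11.31, 11.38 and 11.22 on the E11.5 arrays, then 12.74, 12.50 and 12.70 on the E15.5 arrays, while the non-germ cells read 5.33 and 5.36. Dazl, a germ cell translation regulator, gave 12.04, 12.42 and 12.18 first and 12.44, 11.91 and 12.23 later, while the non-germ cells read 5.55 and 5.62. All 3 genes were thus detected on every germ cell array and far above the non-germ arrays, where none of them was detected. The Pou5f1 level fell by 0.63 ± 0.18 (SE; adjusted p = 0.0131), and differed by -0.47 without E15.5 replicate 2 (adjusted p = 0.0407). This difference holds only among cells that passed the sort. Dazl differed by -0.02 ± 0.18 (adjusted p = 0.929), with overlapping groups, and its sign turned without E15.5 replicate 2, to 0.12 (adjusted p = 0.617).

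One library stood apart. The 3 E11.5 arrays correlated at 0.976 to 0.979 over the 10426 genes, and E15.5 replicates 1 and 3 at 0.969, but E15.5 replicate 2 correlated with them at 0.912 and 0.930. Replicate 2 also held RNA of somatic genes. The 17 markers of interstitial cells averaged 6.41 and 6.44 on E15.5 replicates 1 and 3, 9.28 on replicate 2, 5.52 to 6.10 at E11.5, and as much as 10.16 and 10.19 on the non-germ arrays. For this reason every test was fitted with all arrays and again without replicate 2. Only the fit left that array out, since the detection filter and the scaling still used it. Without replicate 2, 1138 of the kept probes would fail the filter, and 9833 genes would remain. Below, "rose" and "fell" mean an adjusted p below 0.05 in both fits (limma, Benjamini-Hochberg adjustment over the probes compared). The arrays detected 14865 to 18657 probes each, with median raw signals of 237 to 315, and the number of arrays limits the precision.

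After quantile scaling about as many genes rose as fell. With all arrays, 2945 genes were higher at E15.5 (28.2% of those tested) and 2802 lower (26.9%). Without replicate 2 the counts were 3040 (29.2%) and 2809 (26.9%). In both fits, 2801 genes rose (26.9%) and 2531 fell (24.3%), so that 51.1% of genes passed the test in one direction or the other. The 3 values of each stage did not overlap for 6219 genes (59.6%). A share of this size is the background against which each gene group below has to be read. The median difference over all genes was -0.0031 with all arrays and 0.0098 without replicate 2. Quantile scaling gives every array the same distribution of levels, so this near balance is partly set by the scaling. With another scaling, cyclic loess, the median was 0.119 and 59.1% of called genes were higher.

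Large rises were more numerous than large falls. At least 2-fold changes in both fits numbered 1800 upward (17.3%) and 1395 downward (13.4%), and at least 8-fold changes 220 and 47. At least 16-fold changes were found for 65 genes upward and 13 downward. Part of the tested probes could differ in 1 direction only: 2017 probes were kept through E15.5 arrays alone, of which 1590 were called higher, and 867 through E11.5 arrays alone, of which 726 were called lower. The 1930 probes detected on exactly 2 of the 6 arrays had a median level of 5.78, and the 3313 left out with 1 detection a median of 5.52.

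**Figure D1:**
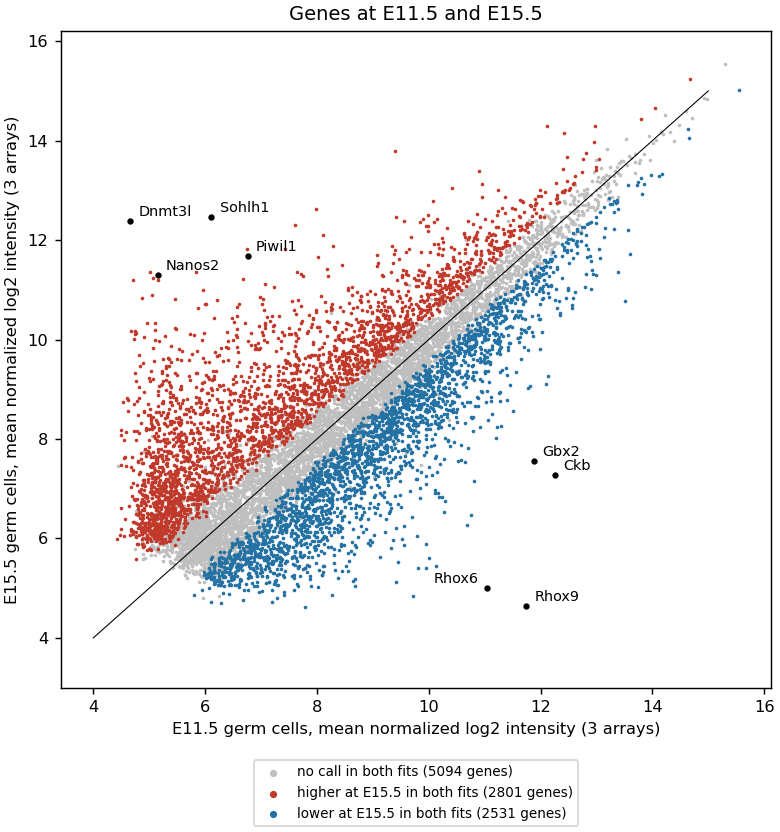
Mean normalized log2 intensity of 10426 genes at E11.5 (horizontal axis, 3 arrays) against E15.5 (vertical axis, 3 arrays), with the line of equal levels. The 2801 genes that rose lie above the line and reach farther from it than the 2531 that fell, with Dnmt3l, Nanos2 and Sohlh1 at the upper left and Rhox9 and Rhox6 at the lower right.

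Genes of the male germ cell were among the strongest rises. Dnmt3l, the catalytically inactive partner of the DNA methyltransferases DNMT3A and DNMT3B, read 4.62, 4.59 and 4.78 at E11.5, where no array detected it, and 12.37, 12.24 and 12.56 at E15.5. It was at least 77.4-fold higher (adjusted p = 7.42e-07), which was the largest lower bound among genes undetected on every E11.5 array. The E13.5 arrays still gave 7.08, 4.96 and 4.63, with 1 of 3 detecting it. Nanos2 read 5.11, 5.28 and 5.06 at E11.5, again below detection, and 11.59, 10.93 and 11.39 at E15.5, at least 36.4-fold higher (adjusted p = 4.61e-08). Unlike Dnmt3l, Nanos2 was already at 11.58, 11.60 and 10.96 at E13.5. Such bounds set the E15.5 mean against the lowest detected signal on each E11.5 array.

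The other 4 largest bounds upward were those of Nxf2 (at least 38.1-fold), a germ cell homologue of the mRNA export factor NXF1, Tspoap1 (34.99-fold), Tmc7 (33.9-fold) and Taf7l (33.8-fold), a germ cell variant of a subunit of the general transcription factor TFIID. Nxf2 read 4.80, 5.23 and 5.01 at E11.5 and 11.45, 10.99 and 11.66 at E15.5. Taf7l read 4.92, 5.05 and 5.49 and 11.17, 10.96 and 11.45. Nxf2 and Taf7l lie on the X chromosome.

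Of 21 genes listed for male germ cell differentiation, 20 passed the filter, 5 of them through E15.5 arrays alone and 2 through E11.5 arrays alone. Among the 20, 13 rose and 6 fell (26.9% and 24.3% of all genes did), with a median difference of 2.28 (2.19 without replicate 2). Egr4, an early growth response transcription factor, read 5.10, 4.98 and 5.08 at E11.5 and 11.01, 10.49 and 11.19 at E15.5, at least 27.5-fold higher. The 6 that fell were Lefty2, Etv5, Tdgf1, Nodal, Lefty1 and Dppa2, of which 4 belong to Nodal signalling.

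The genes of both DNMT3L partners rose. Dnmt3b read 9.99, 9.86 and 9.84 at E11.5 and 12.35, 12.34 and 12.56 at E15.5, a rise of 2.52 ± 0.14 (adjusted p = 3.66e-07; 2.56 without replicate 2). Dnmt3a, for which the replicates read 7.53, 7.29 and 8.01 and then 9.38, 10.39 and 9.86, rose by 2.27 ± 0.28 (adjusted p = 6.9e-05; 2.01 without replicate 2). The stages did not overlap for either gene. Dnmt3a was also bright in the non-germ cells, at 11.21 and 10.84, and lower in the E13.5 germ cells, at 7.12, 7.47 and 7.75, and replicate 2 was the highest of its E15.5 values. Non-germ levels of Dnmt3b were 11.96 and 11.93. The part of somatic RNA in either rise was not tested. Tet1, which encodes an enzyme that oxidizes 5-methylcytosine, read 8.98, 8.51 and 8.86 at E11.5 and 6.67, 5.67 and 6.89 at E15.5 (difference -2.37 ± 0.29, adjusted p = 5.6e-05). Tdg, the glycosylase that removes the oxidized base, was not detected at E15.5 and was at least 2.34-fold lower (adjusted p = 2.86e-05). Of the 14 DNA methylation genes that passed the filter, among 15 on the array, 5 rose and 6 fell (26.9% and 24.3% of all genes did). Their median difference was 0.011 (0.017 without replicate 2).

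Most genes of the piRNA pathway rose. Of 24 genes listed for piRNA and transposon defence, 22 were on the array and 20 passed the filter, 5 of these through E15.5 arrays alone. Of the 20, 15 rose (26.9% of all genes did) and 2 fell, with a median difference of 1.72 (1.97 without replicate 2). All 3 mouse PIWI proteins, which carry the piRNAs, were among those that rose. Piwil1 read 6.70, 6.84 and 6.74 at E11.5 and 11.62, 11.41 and 11.99 at E15.5, a rise of 4.91 ± 0.22 (adjusted p = 1.57e-07; 5.04 without replicate 2). Piwil2 was high at both stages, at 11.27, 11.24 and 11.56 and then 13.02, 12.56 and 13.01, a rise of 1.51 ± 0.22 (adjusted p = 0.000173). Piwil4 was undetected at E11.5, read 8.35, 7.38 and 8.07 at E15.5 and was at least 3.52-fold higher (adjusted p = 8.45e-05). In all 3 genes the stages did not overlap.

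Among the partners of the PIWI proteins, the tudor-domain helicase gene Tdrd9 read 6.33, 5.52 and 5.67 at E11.5, with detection on 1 array, and 11.42, 11.03 and 11.65 at E15.5. Its rise was 5.53 ± 0.37 (adjusted p = 1.14e-06; 5.70 without replicate 2), the second largest among genes detected at both stages. Gtsf1, an auxiliary factor of PIWI proteins, read 4.69, 4.78 and 4.74 and was undetected at E11.5, then 10.62, 9.60 and 10.31, at least 16.7-fold higher (adjusted p = 1.73e-06). Tdrd7, a tudor protein gene, was likewise undetected at E11.5 and at least 13.49-fold higher. The 2 that fell were Tdrd12, by 1.05 ± 0.18 (adjusted p = 0.000521), and the helicase gene Mov10, by 0.70 ± 0.23 (adjusted p = 0.0236). The Mov10 call was lost without E15.5 replicate 1 (-0.48, adjusted p = 0.0870) and without E11.5 replicate 1 (-0.60, adjusted p = 0.0823). Tdrd6, Rnf17 and Tex19.1 were not called in both fits.

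**Figure D2:**
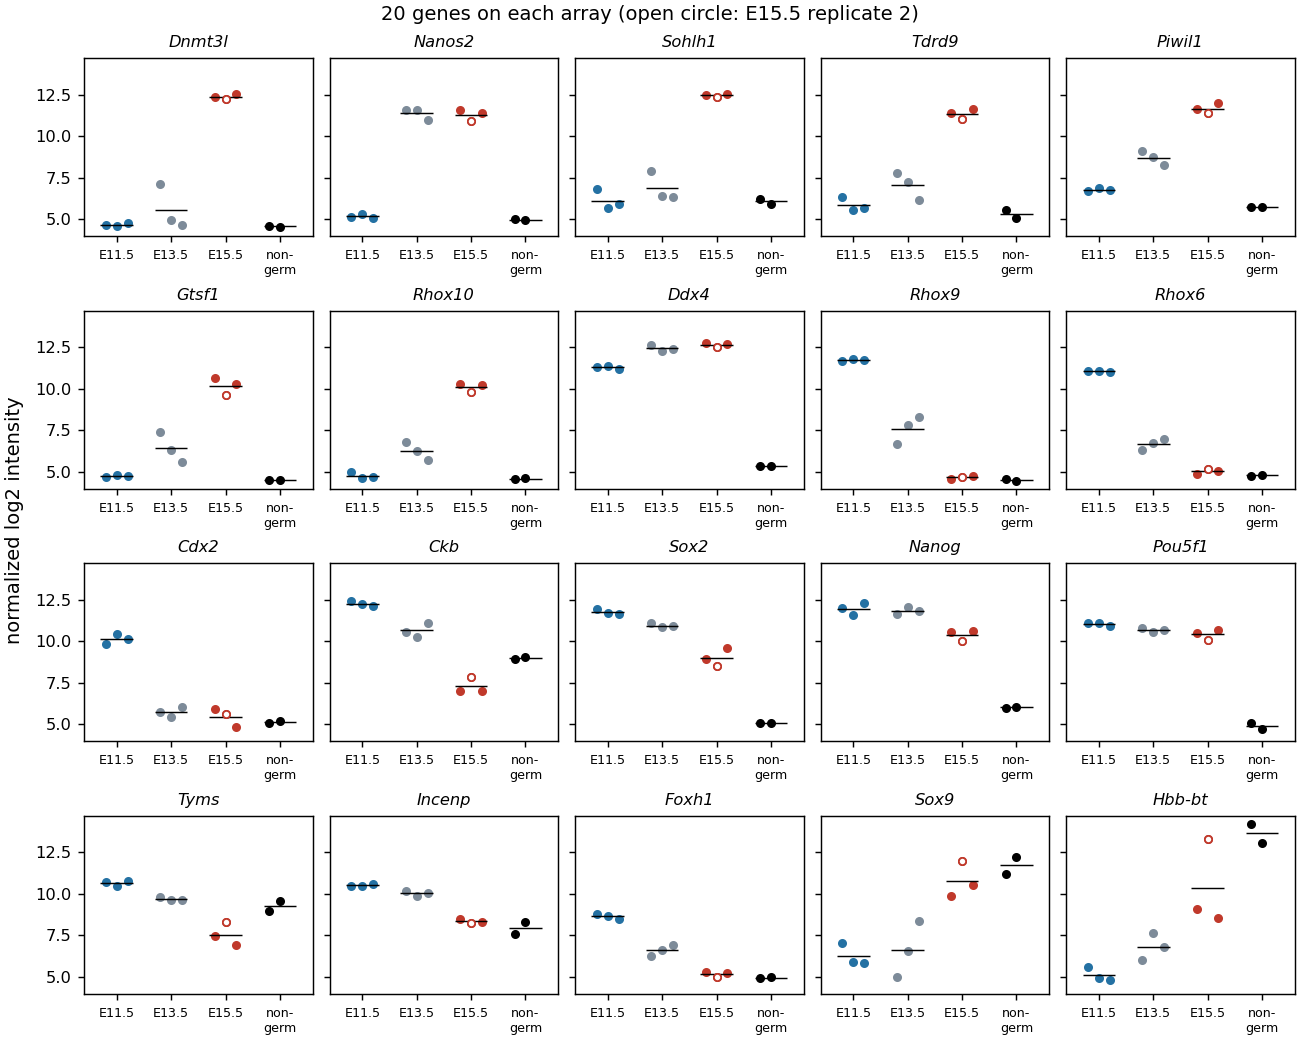
Normalized log2 intensity of 20 genes on each of the 11 arrays, with a bar at each group's mean and E15.5 replicate 2 as an open circle. In the top row and in Gtsf1 and Rhox10 all E15.5 points lie above all E11.5 points, and in Rhox9, Rhox6, Cdx2, Ckb, Sox2, Tyms, Incenp and Foxh1 all lie below, while replicate 2 departs from its group in Hbb-bt.

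The promoters of piRNA genes are shown for the 2 that rose with most copies of the E-box CACGTG, a palindrome bound by several helix-loop-helix and MYC-family factors. Each line is the RefSeq window from 250 bases before to 50 after the annotated start, on the strand given (GRCm38.p6), with E-boxes in capitals. Tdrd9 lies at chr12:111971309-111971608 and Piwil1 at chr5:128735996-128736295, both on the plus strand.
Tdrd9: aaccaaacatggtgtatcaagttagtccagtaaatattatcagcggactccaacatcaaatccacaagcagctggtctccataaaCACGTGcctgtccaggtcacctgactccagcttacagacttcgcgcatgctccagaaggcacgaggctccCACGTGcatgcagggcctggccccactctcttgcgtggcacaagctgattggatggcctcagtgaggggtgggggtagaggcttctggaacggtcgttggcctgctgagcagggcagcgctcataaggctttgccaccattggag
Piwil1: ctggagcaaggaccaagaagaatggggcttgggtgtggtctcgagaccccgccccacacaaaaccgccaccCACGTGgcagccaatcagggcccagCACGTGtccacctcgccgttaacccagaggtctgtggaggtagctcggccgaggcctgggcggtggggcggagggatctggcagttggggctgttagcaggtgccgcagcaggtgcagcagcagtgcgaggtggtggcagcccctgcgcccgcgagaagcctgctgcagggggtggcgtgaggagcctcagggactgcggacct
An E-box was present in 30.4% of the 23 windows of 16 piRNA genes, against 10.3% of the 10817 windows found for 8493 of the tested genes and 7.15% of all 32851 windows in the reference table. Among genes that rose at least 2-fold the share was 11.1%. The ratio of observed to expected CpG had a median of 0.575 in the piRNA windows and 0.754 over the tested genes. A match is a description of these letters and the genes shown were chosen for their matches, so no test was made.

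Transcription factors and genes with no listed role led the remaining rises. Sohlh1, a helix-loop-helix factor of spermatogonia and oocytes, read 6.80, 5.65 and 5.88 at E11.5, with detection on 1 array, and 12.48, 12.34 and 12.57 at E15.5. The rise of 6.35 ± 0.41 (adjusted p = 8.56e-07; 6.41 without replicate 2) was the largest among genes detected at both stages. Its partner gene Sohlh2 moved in the opposite direction, from 7.90, 8.34 and 8.13 to 5.33, 5.74 and 5.26. No E15.5 array detected Sohlh2, which was at least 4.41-fold lower (adjusted p = 2.26e-06). The POU factor gene Pou6f1 read 5.61, 5.79 and 6.19 and then 10.71, 10.24 and 10.96, and the signal transducer gene Stat5a 5.64, 6.22 and 6.17 and then 10.90, 10.39 and 10.84. Their rises were 4.77 ± 0.22 and 4.70 ± 0.41 (adjusted p = 1.75e-07 and 6.47e-06). Pou6f1 was detected on 1 E11.5 array.

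The rest of the 12 largest rises with detection at both stages, ranked by the difference without replicate 2 but given here with all arrays, were Nckap5 (5.07), the polycystin-family channel gene Pkd2l1 (5.03), the chromatin remodeller gene Smarca1 (4.70), the ER-phagy receptor gene Retreg1 (4.64), the X-linked MAGE-family gene Mageb4 (4.54), Ndrg4 (4.39) and the DNA glycosylase gene Neil2 (4.30). Without replicate 2 these 7 differences ran from 4.45 to 5.14, with no overlap between stages in any. Pkd2l1 and Neil2 were detected on 1 E11.5 array each, so their differences rest in part on undetected signals. Smarca1 was also bright in the non-germ cells, at 13.12 and 13.11, and read 8.33, 7.45 and 7.04 at E11.5 and 12.33, 12.50 and 12.09 at E15.5, with replicate 2 close to its group.

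Of 14 spermatogonial stem cell genes that passed the filter, among 20 on the array, 8 rose and 3 fell (26.9% and 24.3% of all genes did). Their median difference was 0.74 (0.85 without replicate 2). Bcl6b, a transcriptional repressor of the GDNF response, read 7.13, 6.92 and 7.07 and then 10.89, 10.50 and 11.03, a rise of 3.76 ± 0.32 (adjusted p = 5.49e-06). Ret, the GDNF receptor, was undetected at E11.5 and read 7.44, 6.74 and 8.15 at E15.5, at least 2.51-fold higher. Etv5 and Lhx1, 2 other genes of that response, fell. Etv5 went from 11.65, 11.29 and 11.44 to 9.35, 9.25 and 8.63 (difference -2.38 ± 0.20, adjusted p = 5.91e-06), and Lhx1 from 10.09, 10.38 and 10.56 to 8.04, 7.87 and 7.998 (-2.37 ± 0.18, adjusted p = 2.22e-06). For both genes every E15.5 value lay below every E11.5 value.

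Of 34 genes listed for meiosis and the retinoic acid response, 31 were on the array and 21 passed the filter, 5 of them through E15.5 arrays alone. Among the 21, 13 rose and 1 fell (26.9% and 24.3% of all genes did), with a median of 0.98 (1.18 without replicate 2). Sycp2, a lateral element protein of the synaptonemal complex, was undetected at E11.5 and read 8.69, 8.14 and 8.34 at E15.5, at least 4.82-fold higher (adjusted p = 4.67e-07). Tex12, a central element protein, read 6.81, 6.997 and 7.32 and then 10.24, 9.72 and 10.32, a rise of 3.05 ± 0.20 (adjusted p = 1.07e-06). Syce2, another central element protein, was the exception, with 10.05, 9.88 and 9.92 at E11.5 and 7.56, 6.71 and 7.05 at E15.5, and fell by 2.85 ± 0.22 (adjusted p = 2.62e-06). Stra8, the retinoic acid target required to start meiosis, read 4.49, 4.53 and 4.46 at E11.5 and 5.20, 7.65 and 6.97 at E15.5. Replicates 2 and 3 detected it and replicate 1 did not. The difference of 2.12 ± 0.46 passed the test (adjusted p = 0.00273; 1.59 without replicate 2, adjusted p = 0.00550), and the bound was only 1.40-fold. None of the E13.5 arrays detected it.

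All 8 oocyte genes that passed the filter, among 19 on the array, were called, 7 upward and 1 downward, with 3 of them kept through E15.5 arrays alone. Over all genes 26.9% rose and 24.3% fell. Nlrp4f, an oocyte gene of the NLRP family, read 5.12, 4.80 and 4.68 at E11.5, without detection, and 10.93, 10.64 and 10.93 at E15.5, at least 26.3-fold higher (adjusted p = 3.98e-07). Ooep, a gene of the subcortical maternal complex, read 9.29, 9.44 and 9.24 and then 8.42, 7.89 and 8.35, and fell by 1.10 ± 0.19 (adjusted p = 0.000711). Of 13 germ cell RNA regulators, 6 rose and 1 fell. Ddx25, a testis RNA helicase, rose by 3.73 ± 0.25 (adjusted p = 1.27e-06) and Ddx4 by 1.34 ± 0.15 (adjusted p = 3.35e-05), although 1 of 3 Ddx4 probes was called lower. Pum2, a translational repressor, fell by 1.02 ± 0.15 (adjusted p = 0.000221).

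The pluripotency network fell in part. Of 23 genes that passed the filter, 3 through E11.5 arrays alone and 1 through E15.5 arrays alone, 12 fell (24.3% of all genes did) and 2 rose, with a median difference of -0.67 (-0.64 without replicate 2). Sox2 read 11.97, 11.72 and 11.63 at E11.5 and 8.94, 8.52 and 9.60 at E15.5, and fell by 2.75 ± 0.24 (adjusted p = 6.52e-06). Nanog read 12.01, 11.59 and 12.33 and then 10.58, 10.01 and 10.62, and fell by 1.57 ± 0.23 (adjusted p = 0.000204; -1.37 without replicate 2). Both genes were still detected on all E15.5 arrays, and neither overlapped between the stages. Steeper falls were those of L1td1, an RNA-binding protein of stem cells, from 10.95, 10.73 and 10.75 to 7.59, 6.46 and 7.42 (-3.65 ± 0.26, adjusted p = 1.71e-06), and of Klf2. Klf2, a Krüppel-like factor, read 9.52, 9.30 and 9.25 and then 5.94, 6.51 and 5.48, with detection at E15.5 on replicate 2 alone. Its difference was -3.38 ± 0.27 (adjusted p = 3.76e-06), and without replicate 2 it was at least 9.55-fold lower.

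Klf4 of the same family did the opposite. It was undetected at E11.5, at 5.86, 5.77 and 5.96, and read 7.81, 8.68 and 8.19 at E15.5, at least 4.32-fold higher (adjusted p = 1.66e-05). Sall4 and Lin28a were not called. Sall4 read 14.28, 14.46 and 14.23 at E11.5 and 14.04, 14.06 and 14.43 at E15.5, and Lin28a read 11.26, 11.62 and 11.43 and 11.48, 10.98 and 11.53, with overlapping groups in each. Dppa4 differed by 0.49 ± 0.17 (adjusted p = 0.0290; 0.59 without replicate 2), and leaving out E15.5 replicate 1 or 3 or E11.5 replicate 1 or 2 gave adjusted p-values of 0.0957, 0.0666, 0.0704 and 0.0808.

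Among early primordial germ cell genes, 8 of 13 that passed the filter fell and 1 rose (24.3% and 26.9% of all genes did). Their median was -1.31 (-1.30 without replicate 2). Ifitm3, a surface protein of early germ cells, read 12.11, 12.06 and 12.21 and then 9.28, 9.33 and 9.20, and fell by 2.86 ± 0.16 (adjusted p = 3.97e-07). Prdm1, the repressor that specifies the germ line in mice, read 8.65, 8.95 and 8.75 and then 6.33, 5.63 and 6.82. It fell by 2.53 ± 0.26 (adjusted p = 1.9e-05), with detection on 1 E15.5 array. Kit, the receptor for stem cell factor, read 10.998, 11.17 and 10.98 and then 8.21, 9.41 and 9.29, and fell by 2.08 ± 0.29 (adjusted p = 0.000153). No stage overlap was seen in these 3 genes. Dppa3 did not change by the test, with 12.16, 12.13 and 12.08 at E11.5 and 12.19, 11.40 and 11.93 at E15.5 (difference -0.28 ± 0.19, adjusted p = 0.244). Dnd1, a cofactor of NANOS2, was the gene that rose, by 0.73 ± 0.21 (adjusted p = 0.0124), and leaving out E11.5 replicate 3 gave 0.61 (adjusted p = 0.0522).

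Genes of Nodal signalling and of FGF feedback were mostly lower at E15.5. In the Nodal pathway, 9 of the 12 genes that passed the filter fell and none rose (24.3% and 26.9% of all genes did). Of the 12, 4 had passed through E11.5 arrays alone. The median was -1.60 (-1.72 without replicate 2). The ligand gene Nodal read 8.87, 8.82 and 8.86 in the E11.5 cells, then 9.49, 9.69 and 9.68 in the E13.5 cells, and 6.91, 6.30 and 7.98 at E15.5, and fell by 1.79 ± 0.33 (adjusted p = 0.000881). Its antagonist gene Lefty2 read 9.15, 8.07 and 8.80 in the E11.5 cells, then 9.45, 9.74 and 9.43 in the E13.5 cells, and was undetected at E15.5, at least 6.46-fold lower than at E11.5 (adjusted p = 3.32e-06). For both genes all E13.5 values lay above all values of the other stages. The co-receptor gene Tdgf1 was undetected at E15.5 and at least 3.51-fold lower, and the nuclear effector gene Foxh1 likewise at least 6.32-fold lower. Foxh1 had read 8.79, 8.64 and 8.50 at E11.5.

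Of 11 genes of FGF and ERK feedback, 8 fell and 1 rose (24.3% and 26.9% of all genes did). Their median was -1.50 (-1.99 without replicate 2). Dusp4, a phosphatase that dampens ERK, read 9.43, 8.94 and 9.02 and then 4.83, 5.88 and 6.15, and fell by 3.51 ± 0.31 (adjusted p = 6.96e-06). Spred1, an inhibitor of the same pathway, rose by 0.70 ± 0.19 (adjusted p = 0.00900; 0.52 without replicate 2). Its E15.5 values were 10.30, 10.89 and 10.42, replicate 2 being the highest.

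Of 15 Wnt genes, 4 rose and 4 fell, near the shares over all genes (26.9% and 24.3%). The receptor gene Fzd7 read 11.25, 11.35 and 11.23 and then 8.23, 9.62 and 8.46, and fell by 2.51 ± 0.29 (adjusted p = 4.49e-05), and Porcn, which encodes the acyltransferase of Wnt ligands, fell by 2.76 ± 0.21 (adjusted p = 2.88e-06). The target gene Sp5 was undetected at E11.5 and at least 1.32-fold higher at E15.5. At E13.5 it had stood at 9.07, 9.12 and 8.64, above every E15.5 value of 6.15, 6.28 and 7.13. Among 12 BMP and Id genes, 4 rose and 5 fell. The inhibitor of differentiation gene Id2 read 11.46, 11.74 and 11.31 at E11.5 and 6.91, 11.07 and 7.74 at E15.5, where replicate 2 stood near the E11.5 level and near the non-germ cells, at 12.78 and 12.83. It fell by 2.93 ± 0.79 with all arrays (adjusted p = 0.00889), and the difference was -4.18 without replicate 2 (adjusted p = 1.21e-06). Id3 read 7.98, 8.10 and 8.19 and then 4.89, 6.08 and 4.86, was detected at E15.5 on replicate 2 alone, and was at least 3.98-fold lower without it. Bmpr1b, a BMP receptor, was at least 2.93-fold higher at E15.5.

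Genes of cell division fell together. Of 41 DNA replication genes, 40 were on the array and 39 passed the filter, all through arrays of both stages. Of the 39, 29 fell and none rose (24.3% and 26.9% of all genes did). The median difference was -1.30 (-1.35 without replicate 2). Tyms, the enzyme that makes thymidylate, read 10.70, 10.45 and 10.79 and then 7.44, 8.30 and 6.88, and fell by 3.10 ± 0.31 (adjusted p = 1.47e-05; -3.48 without replicate 2). Tk1, thymidine kinase, read 10.02, 10.35 and 10.06 and then 6.61, 8.76 and 6.66, and fell by 2.80 ± 0.48 (adjusted p = 0.000563; -3.51 without replicate 2). In both genes replicate 2 was the highest of the E15.5 arrays, and the stages did not overlap. The sliding clamp gene Pcna read 10.996, 11.17 and 11.19 and then 8.36, 9.39 and 8.54, and the replicative helicase gene Mcm2 read 9.79, 10.38 and 9.71 and then 7.38, 7.90 and 7.94. The differences were -2.35 ± 0.24 and -2.22 ± 0.23. Gmnn, the licensing inhibitor geminin, fell by 2.83 ± 0.23 (adjusted p = 4.08e-06).

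Of 29 mitosis genes that passed the filter, 2 of them through E11.5 arrays alone, 21 fell and none rose. Their median was -0.99 (-1.01 without replicate 2). Over all genes 24.3% fell and 26.9% rose. Aurkb, the kinase of the chromosomal passenger complex, read 9.73, 9.14 and 9.58 and then 7.30, 8.02 and 6.15, and fell by 2.33 ± 0.38 (adjusted p = 0.000429). Its partner gene Incenp read 10.45, 10.46 and 10.61 and then 8.45, 8.23 and 8.31, and fell by 2.17 ± 0.20 (adjusted p = 7.9e-06). Cdk1, the mitotic kinase, read 9.64, 8.86 and 9.27 and then 7.37, 7.60 and 6.67, and fell by 2.04 ± 0.27 (adjusted p = 0.000106). No E15.5 value reached the E11.5 range in these 3 genes. Of 16 G1 to S cyclins and E2F factors, 12 fell and 3 rose. E2f2, an activating E2F factor, read 10.04, 10.41 and 10.38 and then 4.81, 7.77 and 7.02, replicate 2 being the highest at E15.5. It fell by 3.74 ± 0.63 (adjusted p = 0.000503; -4.36 without replicate 2). E2f6, a repressor of the family, rose by 1.16 ± 0.25 (adjusted p = 0.00244), and Mycn fell by 2.82 ± 0.20 (adjusted p = 1.49e-06), with detection at E15.5 on replicate 2 alone.

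Of 17 cell cycle inhibitors and pocket protein genes, 5 rose and 4 fell, near the shares over all genes (26.9% and 24.3%). Cdkn2a read 7.49, 8.25 and 7.44 and then 10.49, 9.95 and 10.67, a rise of 2.65 ± 0.25 (adjusted p = 1.05e-05), and the non-germ arrays did not detect it. Cdkn1b, which encodes p27, read 7.51, 6.92 and 7.72 and then 9.39, 9.23 and 8.91, a rise of 1.79 ± 0.24 (adjusted p = 0.000121). The retinoblastoma gene Rb1 read 9.78, 9.56 and 9.99 and then 11.38, 10.69 and 11.13, a rise of 1.29 ± 0.21 (adjusted p = 0.000465). In each of the 3 genes the E13.5 level was already above all E11.5 values. Gadd45a, a stress-induced growth arrest gene, read 10.08, 10.01 and 10.07 and then 6.71, 7.98 and 7.11, and fell by 2.79 ± 0.26 (adjusted p = 1.06e-05), and had reached 6.85, 6.95 and 7.03 by E13.5.

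Known promoter elements of dividing-cell genes are shown for 4 genes that fell. These 4 were chosen for their number of matches, so their windows do not stand for the lists. No test was made. Sites for E2F factors, searched as TTCCCGC and TTGGCGC, are in capitals in Pola1, the catalytic subunit gene of DNA polymerase alpha, and in Mcm3, a helicase subunit gene. Cell cycle homology region (CHR) elements, searched as TTTGAA and TTCGAA, are in capitals in Top2a, the topoisomerase gene, and in Cdk1. Both strands were searched, and in Mcm3 a match on each strand overlaps in 1 run. The windows are those described above, on the minus strand: Pola1 at chrX:93632106-93632405, Mcm3 at chr1:20820263-20820562, Top2a at chr11:99024140-99024439 and Cdk1 at chr10:69352863-69353162.
Pola1: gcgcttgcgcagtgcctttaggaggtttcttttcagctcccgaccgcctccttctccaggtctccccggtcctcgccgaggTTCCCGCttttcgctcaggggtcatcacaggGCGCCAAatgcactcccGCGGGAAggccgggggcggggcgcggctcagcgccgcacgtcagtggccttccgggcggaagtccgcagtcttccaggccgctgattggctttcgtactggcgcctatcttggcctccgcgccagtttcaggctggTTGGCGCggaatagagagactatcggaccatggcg
Mcm3: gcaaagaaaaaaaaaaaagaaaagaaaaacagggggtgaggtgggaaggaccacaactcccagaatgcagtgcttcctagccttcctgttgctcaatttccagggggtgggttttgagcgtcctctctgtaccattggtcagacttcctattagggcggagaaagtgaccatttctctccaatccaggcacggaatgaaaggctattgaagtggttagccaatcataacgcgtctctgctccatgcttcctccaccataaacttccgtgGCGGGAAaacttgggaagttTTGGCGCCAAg
Top2a: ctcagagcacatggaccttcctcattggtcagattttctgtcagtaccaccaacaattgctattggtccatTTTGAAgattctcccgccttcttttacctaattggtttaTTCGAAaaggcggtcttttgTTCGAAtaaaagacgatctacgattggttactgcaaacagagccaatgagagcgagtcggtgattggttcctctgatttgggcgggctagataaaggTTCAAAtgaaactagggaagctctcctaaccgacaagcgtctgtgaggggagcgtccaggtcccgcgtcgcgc
Cdk1: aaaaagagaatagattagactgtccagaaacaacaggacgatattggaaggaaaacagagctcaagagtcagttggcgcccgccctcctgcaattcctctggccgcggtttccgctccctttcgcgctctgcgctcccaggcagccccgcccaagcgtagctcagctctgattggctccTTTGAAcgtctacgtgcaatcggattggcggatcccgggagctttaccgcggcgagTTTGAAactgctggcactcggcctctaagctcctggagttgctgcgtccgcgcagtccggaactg
TTCCCGC was found in 36.1% of the 36 windows of 31 DNA replication genes, against 8.33% of the windows of all tested genes, and TTGGCGC in 25% against 4.32%. TTTGAA was found in 76.9% of the 26 windows of 24 mitosis genes, against 12%, and TTCGAA in 11.54% against 2.27%. The box CCAAT was in 73.1% of the mitosis windows and 61.1% of the replication windows, against 38.2%. Over all genes that fell at least 2-fold the shares were near those of the tested genes, 10.7% for TTCCCGC and 13.7% for TTTGAA. Pola1 read 7.58, 7.43 and 7.42 and then 6.98, 6.11 and 6.67 (difference -0.89 ± 0.25, adjusted p = 0.0115; -0.66 without replicate 2). Mcm3 differed by -1.79 ± 0.23 and Top2a by -0.99 ± 0.20 (adjusted p = 9.41e-05 and 0.00184).

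**Figure D3:**
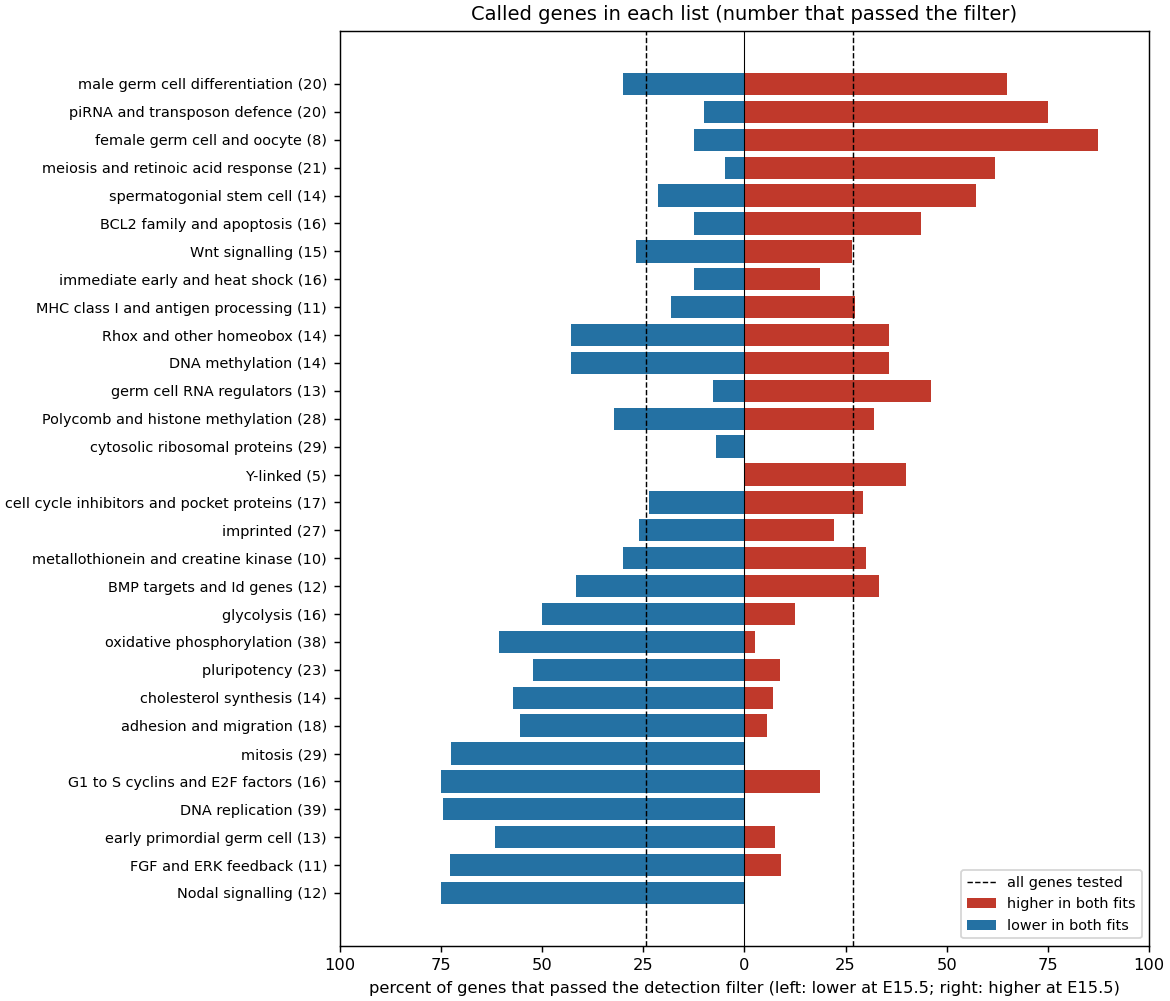
Percent of the genes that passed the filter in each list that rose (right) or fell (left) in both fits, with the number that passed in brackets and the shares over all 10426 genes as dashed lines (26.9% and 24.3%). Lists are ordered by median difference, with Nodal signalling, FGF feedback, DNA replication and mitosis at the bottom and male germ cell differentiation and the piRNA list at the top.

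Homeobox genes gave the 3 largest lower bounds downward. Rhox9, an X-linked reproductive homeobox gene, read 11.69, 11.80 and 11.74 in the E11.5 cells, then 6.65, 7.81 and 8.31 in the E13.5 cells, and 4.53, 4.64 and 4.75 at E15.5, where no array detected it. It was at least 54.1-fold lower (adjusted p = 1.69e-07), and Rhox6, of the same gene cluster, at least 33.5-fold (adjusted p = 2.2e-08). Rhox6 had read 11.05, 11.08 and 11.02 at E11.5. Rhox10 of that cluster rose, from 4.97, 4.60 and 4.68 without detection to 10.28, 9.80 and 10.23, at least 15.8-fold (adjusted p = 1.82e-07). Cdx2, a caudal-type homeobox gene, read 9.81, 10.45 and 10.14 at E11.5 and was undetected at both later stages, at least 17.8-fold lower at E15.5. Gbx2 read 11.78, 12.04 and 11.79 and then 7.19, 7.87 and 7.64, and fell by 4.31 ± 0.22 (adjusted p = 2.31e-07). Over the 14 genes of the list, 5 rose and 6 fell (26.9% and 24.3% of all genes did).

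Both creatine kinases called were among the largest falls. Ckb, the cytosolic brain-type enzyme, read 12.41, 12.23 and 12.15 at E11.5 and 6.999, 7.85 and 6.97 at E15.5, and fell by 4.99 ± 0.27 (adjusted p = 3.03e-07; -5.28 without replicate 2). Ckmt2, a mitochondrial form, read 9.75, 9.79 and 9.63 at E11.5 and was undetected at E15.5, at least 13.4-fold lower (adjusted p = 1.25e-07). The nucleosome-binding gene Hmgn5 read 9.92, 9.70 and 10.21 and then 5.07, 5.83 and 5.34, and the histone gene H3c6 9.53, 9.48 and 9.23 and then 4.55, 5.87 and 4.98, each detected at E15.5 on replicate 2 alone. Without replicate 2 they were at least 14.4-fold and 9.96-fold lower. The linker histone gene H1f1 fell by 3.54 ± 0.45 (adjusted p = 8.28e-05; -4.20 without replicate 2).

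Other large falls were those of Vrtn (-4.42), the serpin gene Serpinb9b (-4.39), the adaptor complex gene Ap3b2 (-4.07), the adhesion gene Flrt3 (-3.42; -4.53 without replicate 2) and the desmosomal cadherin gene Dsg2 (-4.29; -4.84 without replicate 2). Ap3b2 held its level until E13.5, with 9.96, 9.78 and 10.13 in the E11.5 cells, 9.84, 9.60 and 9.87 in the E13.5 cells, and then 5.68, 6.03 and 5.94. Serpinb9b fell earlier, reading 9.85, 9.88 and 10.28 first, 4.60, 4.78 and 4.88 by E13.5, and 5.56, 5.09 and 6.20 last. At E15.5 only 1 array detected Serpinb9b. The 6 largest bounds downward also held BC048679 (at least 14.2-fold) and 1700019D03Rik (at least 11.1-fold). Of 18 adhesion and migration genes, 10 fell and 1 rose (24.3% and 26.9% of all genes did). The gene that rose was the integrin gene Itga6, by 1.86 ± 0.35 (adjusted p = 0.000978).

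Genes of energy metabolism were lower. Of 38 oxidative phosphorylation genes that passed the filter, 23 fell and 1 rose, with a median of -0.65 (-0.64 without replicate 2). Over all genes 24.3% fell and 26.9% rose. Ndufb7, a subunit of complex I, read 9.98, 9.81 and 9.61 and then 7.57, 8.12 and 8.15, and fell by 1.85 ± 0.20 (adjusted p = 2.14e-05). Ndufs8, of the same complex, was the gene that rose, by 0.82 ± 0.15 (adjusted p = 0.000876). Of 16 glycolysis genes, 8 fell and 2 rose. Pgk1, an X-linked glycolytic kinase gene, read 12.70, 12.73 and 12.45 and then 10.66, 11.41 and 10.80, and fell by 1.67 ± 0.20 (adjusted p = 4.75e-05), while the enolase gene Eno2 rose by 2.73 ± 0.33 (adjusted p = 5.7e-05). Eno2 was high in the non-germ cells, at 10.95 and 10.59.

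In cholesterol synthesis 8 of 14 fell and 1 rose (24.3% and 26.9% of all genes did). Their median was -0.78 (-1.05 without replicate 2). Ebp, the sterol isomerase, read 8.66, 9.23 and 8.96 and then 5.48, 6.87 and 5.28, and fell by 3.08 ± 0.36 (adjusted p = 4.37e-05), and replicate 2 was the single E15.5 array that detected it. Ribosomal protein genes stood still by comparison. Of 29 that passed the filter, none rose and 2 fell, Rpl14 and Rps20, by 1.66 ± 0.27 and 1.31 ± 0.24 (adjusted p = 0.000420 and 0.000957). With all arrays 0 of the 29 were called higher and 3 lower, and without replicate 2 there were 1 and 2. Their median was -0.053 (-0.040 without replicate 2).

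Of 28 Polycomb and histone methylation genes, 9 rose and 9 fell, beside 26.9% and 24.3% of all genes. The H3K27 methyltransferase gene Ezh2 read 10.23, 10.38 and 10.34 and then 8.66, 8.83 and 8.81, and fell by 1.55 ± 0.17 (adjusted p = 2.74e-05), and its homologue Ezh1 was among the genes that rose, by 1.79 ± 0.39 (adjusted p = 0.00274). The demethylase gene Kdm6b read 6.69, 6.83 and 6.54 and then 8.9998, 8.71 and 8.86, a rise of 2.17 ± 0.16 (adjusted p = 1.73e-06), and the X-linked Kdm6a fell by 1.25 ± 0.20 (adjusted p = 0.000374). Ehmt2, which encodes the H3K9 methyltransferase G9a, rose by 2.02 ± 0.18 (adjusted p = 7.35e-06).

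Of 27 imprinted genes, 6 rose and 7 fell, near the shares over all genes (26.9% and 24.3%). Phlda2, a maternally expressed growth regulator, read 11.19, 11.56 and 10.92 and then 8.33, 8.08 and 8.30, and fell by 2.99 ± 0.18 (adjusted p = 5.8e-07), most of it reached by E13.5, at 7.91, 7.91 and 8.05. Peg10, a paternally expressed gene, read 7.97, 5.46 and 6.35 and then 9.84, 9.64 and 9.76, a rise of 3.15 ± 0.51 (adjusted p = 0.000396). Dlk1 rose by 3.53 ± 0.76 (adjusted p = 0.00248; 2.58 without replicate 2), with 10.31, 13.18 and 10.34 at E15.5, where replicate 2 approached the non-germ cells, at 13.58 and 13.70.

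Among 16 BCL2-family and apoptosis genes, 7 rose and 2 fell (26.9% and 24.3% of all genes did), with 5 kept through E15.5 arrays alone. Bcl2l1, which encodes the survival protein BCL-X, was undetected at E11.5 and at least 1.91-fold higher (adjusted p = 2.02e-05). The pro-apoptotic genes went both ways: Pmaip1 was at least 1.97-fold higher (adjusted p = 0.000143), while Bid fell by 1.25 ± 0.17 (adjusted p = 0.000129) and Bad by 1.96 ± 0.28 (adjusted p = 0.000162). Of 11 genes for MHC class I and antigen processing, 3 rose and 2 fell. Nlrc5, the transactivator of MHC class I genes, read 4.64, 4.55 and 4.66 at E11.5, without detection, and 8.58, 8.39 and 9.35 at E15.5, at least 6.32-fold higher (adjusted p = 3.03e-07). No E13.5 or non-germ array detected Nlrc5. B2m, the class I light chain, was at least 10.7-fold higher (adjusted p = 3.32e-06), or 8.28-fold without replicate 2. Its E15.5 values were 9.20, 10.28 and 9.13, replicate 2 being the highest. Non-germ arrays gave B2m levels of 10.57 and 10.85. How much somatic RNA added to the B2m rise was not tested. By contrast, the class I gene H2-Bl read 9.67, 9.16 and 9.82 and then 6.37, 5.50 and 5.75. H2-Bl fell by 3.67 ± 0.30 (adjusted p = 3.95e-06). The metallothionein gene Mt1 read 8.80, 7.94 and 8.05 at E11.5, was undetected at E13.5 and read 10.49, 10.61 and 11.06 at E15.5, a rise of 2.46 ± 0.27 (adjusted p = 2.8e-05). Of 16 immediate early and heat shock genes, 3 rose and 2 fell, below the shares over all genes.

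On the sex chromosomes, 131 of 403 X-linked genes rose (32.5%) and 104 fell (25.8%), beside 26.6% and 24.2% of 9991 autosomal genes. Of 7 Y-linked genes tested, 4 rose (57.1%), 3 of them at least 8-fold, and none fell. At least 8-fold rises were found for 5.71% of X-linked and 1.93% of autosomal genes, and falls of that size for 1.24% and 0.42%. Xist, the RNA of the inactive X, read 7.60, 6.78 and 6.79 at E11.5 and 5.84, 5.82 and 6.06 at E15.5, with detection on all E11.5 arrays and 2 of 3 E15.5 arrays, and fell by 1.15 ± 0.27 (adjusted p = 0.00418). The Y-linked Usp9y was undetected at E11.5 and read 9.24, 8.50 and 9.47 at E15.5, at least 7.75-fold higher (adjusted p = 2.15e-06). Eif2s3y read 10.40, 9.44 and 10.76 at E11.5 and 11.27, 10.77 and 10.96 at E15.5 (difference 0.80 ± 0.31, adjusted p = 0.0456). Leaving out any array of the 6 other than E15.5 replicate 2 or E11.5 replicate 3 gave Eif2s3y an adjusted p between 0.0576 and 0.170. Kdm5d and Uty, also Y-linked, were not called (differences -0.11 ± 0.41 and -0.27 ± 0.33). E11.5 samples labelled male/female and male E15.5 samples make stage and sex inseparable for these genes.

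Markers of other gonadal cells were followed because a sort can carry them over. In bulk RNA, fewer cells of a type and less RNA per cell cannot be told apart. The list means in E15.5 replicates 1, 2 and 3 were 5.72, 7.35 and 6.14 for 20 Sertoli cell markers, 5.92, 8.02 and 5.73 for 10 fetal Leydig cell markers, and 6.22, 7.97 and 6.46 for 11 erythroid markers. At E11.5 the ranges of these list means were 5.49 to 5.53, 6.27 to 6.54 and 5.59 to 5.72. Replicate 2 was thus the highest E15.5 array in each list. Of the defining markers, Amh was detected on none of the 6 arrays, and Tcf21, Gata4 and Hsd3b1 on 1 each, which was E15.5 replicate 2. Sox9, the Sertoli cell factor, read 7.003, 5.86 and 5.79 at E11.5 and 9.86, 11.97 and 10.53 at E15.5, a rise of 4.57 ± 0.77 (adjusted p = 0.000506) that was 3.97 without replicate 2 (adjusted p = 0.00157). Mro, another Sertoli cell marker, was at least 8.56-fold higher (4.99-fold without replicate 2). Of the 8 Sertoli cell markers that passed the filter, 6 of them through E15.5 arrays alone, these 2 rose and none fell. In the fit without replicate 2, 1 of the 8 was called lower. Among 10 interstitial markers that passed the filter, 3 of them through E15.5 arrays alone, 6 rose (26.9% of all genes did) and none fell. Col5a1, a fibrillar collagen gene, read 8.86, 10.06 and 9.10 at E15.5 after no detection at E11.5.

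**Figure D4:**
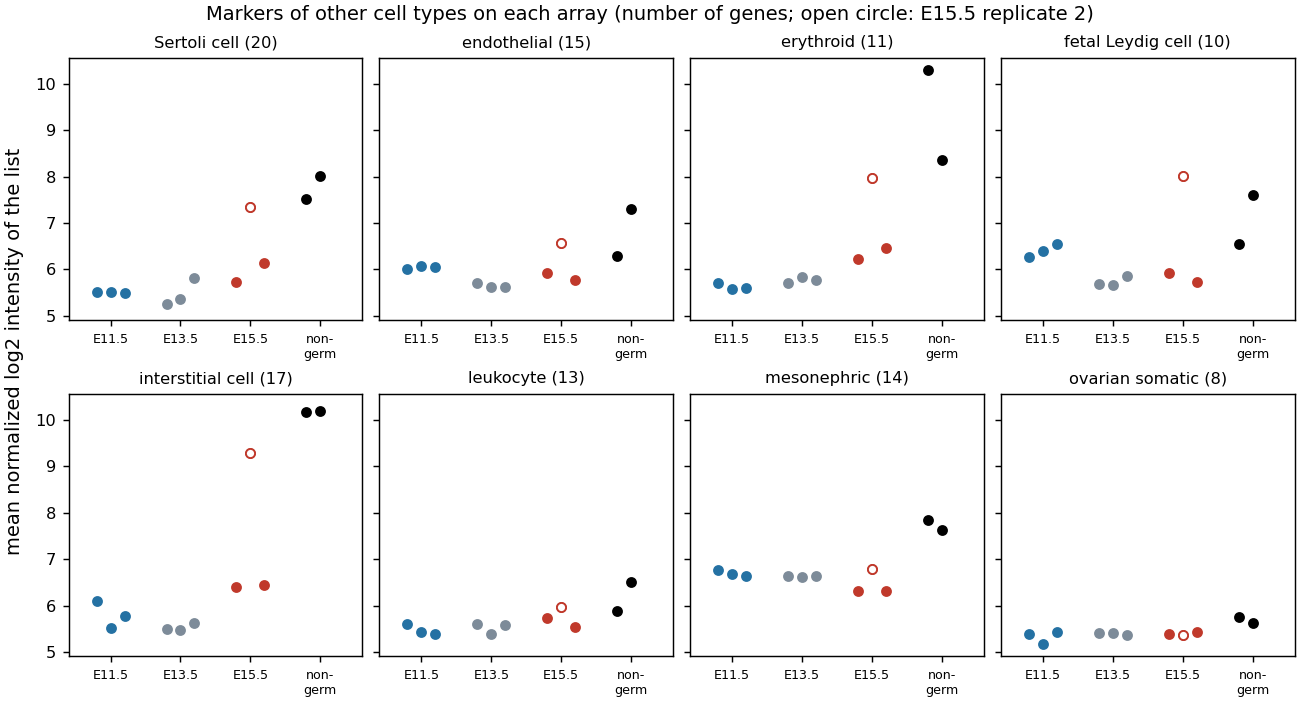
Mean normalized log2 intensity of 8 marker lists on each array, with the number of genes in brackets and E15.5 replicate 2 as an open circle. Replicate 2 stands above both other E15.5 arrays in every list but the ovarian somatic one, most in the interstitial list (9.28 against 6.41 and 6.44).

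Some calls, and the size of some differences, leaned on replicate 2. Of the 2945 genes called higher with all arrays, 144 were not called higher without it. Among the 6 genes whose difference shrank most without it, Stc1, a secreted glycoprotein gene, read 6.99, 12.47 and 6.33 at E15.5, and its difference went from 3.25 to 1.31 (adjusted p = 0.0411 and 0.00831). Leaving out any E11.5 replicate gave Stc1 an adjusted p of 0.0738 to 0.106. Hbb-bt, a beta globin gene, read 5.58, 4.93 and 4.79 at E11.5 and 9.10, 13.31 and 8.57 at E15.5, at least 18.5-fold higher, or 6.57-fold without replicate 2. The alpha globin gene Hba-a1 was at least 8.25-fold and 2.67-fold higher. Both globin genes stayed called without replicate 2 (adjusted p = 8.37e-05 for Hbb-bt and 0.000767 for Hba-a1). Aldh1a1, a retinaldehyde dehydrogenase gene, read 4.69, 10.26 and 7.45, and its call was lost without replicate 2 (3.01, then 1.62 with adjusted p = 0.0795). Leaving out any other of the 6 arrays except E15.5 replicate 1 also lost it, with adjusted p-values of 0.0656 to 0.0694. Col1a1 and Alcam differed by 2.29 and 2.56 with all arrays (adjusted p = 0.0344 and 0.0287). Without replicate 2 they differed by 0.99 and 1.21 and stayed called (adjusted p = 0.00666 and 0.0169). Leaving out E11.5 replicate 2 or 3 lost the Col1a1 call (adjusted p = 0.0776 and 0.0940), and leaving out any E11.5 replicate lost that of Alcam (adjusted p = 0.0506 to 0.0730).

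The whole set of genes high in somatic cells also stood highest on replicate 2 among the E15.5 arrays. Genes were grouped by the difference between the E13.5 groups, with the scaling and the spread taken from all 11 arrays. Of 793 genes that passed the test at E13.5 with a level in the non-germ cells at least 4-fold that of the germ cells (7.61% of genes), 353 rose and 56 fell between E11.5 and E15.5 germ cells (44.5% and 7.06%). With all arrays 388 of the 793 were called higher and 56 lower, and without replicate 2 the counts were 353 and 134. The median difference of that set was 1.08 with all arrays and 0.54 without replicate 2. Its median level was 7.01, 8.71 and 7.17 on E15.5 replicates 1, 2 and 3. Of 537 genes at least 4-fold higher in germ cells (5.15%), 173 rose (32.2%) and 185 fell (34.5%), with medians of -0.16 and 0.049. In the remaining 9096 genes 25.01% rose and 25.2% fell. With the 5 E13.5 arrays scaled and fitted alone, an alternative chosen after seeing the data, 816 genes were high in non-germ cells, of which 360 rose and 60 fell, and 559 in germ cells, of which 177 rose and 196 fell. The part of somatic RNA in the rises of non-germ genes on replicates 1 and 3 was not tested. Dnmt3l, Nanos2, Gtsf1, Rhox10, Nxf2, Taf7l and Nlrp4f were undetected in the non-germ cells.

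**Figure D5:**
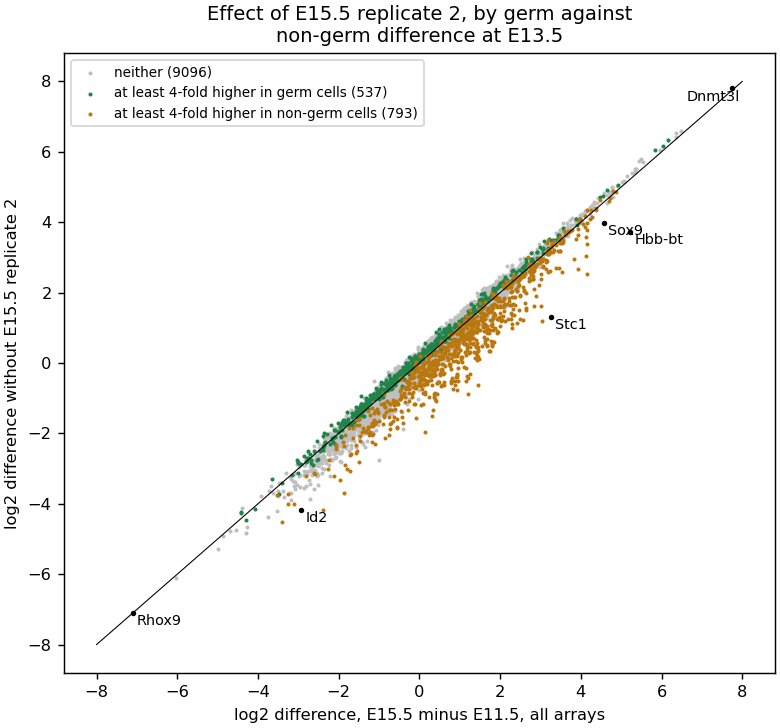
Log2 difference of 10426 genes with all arrays (horizontal axis) and without E15.5 replicate 2 (vertical axis), coloured by the germ against non-germ call at E13.5, with the line of equal values. Genes high in non-germ cells lie mostly below the line (medians 1.08 and 0.54), whereas Dnmt3l and Rhox9 lie on it.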

How the data were processed

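RNA was isolated from sorted cells, amplified and biotin-labelled in the same way for every sample, per the labels' protocols. The deposited table gives, per the file headers, each probe's signal intensity on a linear scale, not normalized, beside a detection p-value. The authors also deposited rescaled intensities, in which every array relates linearly to its raw signals. The scanner software and the method of rescaling are not given in the sources used here.

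From the non-normalized intensities, neqc of limma 3.58.1 (R 4.3.3) estimated and removed background by way of the detection p-values, then applied an offset of 16, quantile normalization over the 11 arrays and a log2 transform. Probes with a detection p-value below 0.01 on at least 2 of the 6 arrays were kept. The probe annotation gave 1 symbol to 15931 kept probes, several to 8 and none to 3293. The brightest kept probe stood for its gene, and in 74 of 3822 genes with several kept probes these were called in opposite directions. A linear model with 4 group means was fitted to the 11 arrays (7 residual and 3.97 prior degrees of freedom), then without E15.5 replicate 2 (6 and 4.32). Moderated tests were two-sided, with Benjamini-Hochberg adjustment over 19232 probes and a threshold of 0.05. The limma p-values measure the spread between these arrays.

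Named genes were, by rule, the 12 largest rises and falls (by the difference without E15.5 replicate 2) called in both fits without overlap and detected at both stages, the 6 largest lower bounds each way, up to 2 rises and 2 falls of each list, the 6 genes most reduced without E15.5 replicate 2, and 12 chosen germ cell, somatic and sex-linked genes. Other genes named were chosen after their values were seen. The members and the lists were chosen with earlier results of these data known. Deviations of same-numbered replicates of the stages correlated at -0.042, -0.113 and 0.092, and those of unlike-numbered replicates at -0.184 to 0.149. With 3 arrays for each stage this cannot tell whether the numbers pair samples. The main fits used no pairing. Added after seeing the data were 2 other fits that define the E13.5 sets. Alternatives covered background, scaling, offset, filter, arrays fitted, weights, replicate block, probe choice and leaving out each array.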

Additional observations from a re-analysis of the deposited data

How the results depend on the processing

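Over the alternatives, the genes called higher ranged from 2616 (only the 6 arrays fitted) to 3341 (cyclic loess) and those called lower from 2315 (cyclic loess) to 3039 (mean of all kept probes of a gene), each within 1.5 times the reported counts. Leaving out each of the 6 arrays gave 2661 to 3040 genes higher and 2443 to 2809 lower, and 4217 to 4926 probes higher and 4772 to 5366 lower. The replicate block, which treats equal replicate numbers as pairs, gave 2793 genes higher and 2612 lower, and 4475 and 5113 probes. Cyclic loess moved the median difference of all genes to 0.119 and the share of called genes that were higher from 51.2% to 59.1%. Of 147 genes named by rule, Dazl, never called, was the single one whose sign turned: its difference was 0.072 with cyclic loess, 0.018 with array weights, 0.081 without E11.5 replicate 2, and between -0.146 (without E15.5 replicate 1) and 0.118 (without E15.5 replicate 2) over the arrays left out in turn. Between 0 and 13 named genes lost their call under an alternative, most without E11.5 replicate 2. Array weights gave E15.5 replicate 2 the lowest weight, 0.316. Blocking on slide was not run, since the headers used here name none. The genes high in non-germ cells that rose numbered 353 with sets from the fit without E15.5 replicate 2 and 360 with sets from the E13.5 arrays alone, alternatives chosen after seeing the data. Signal over background limits folds of undetected genes to bounds.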

Other observations

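The kept probes without a single gene symbol (3293 with none and 8 with several) were tested but not described. Among them 648 were called higher at E15.5 and 883 lower with all arrays.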
